A study of Homo sapiens with 8 samples.

Results

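Enzalutamide-sensitive VCaP and enzalutamide-sensitive CWR-R1, both human prostate cancer cell lines, were compared with each other, without their resistant counterparts. The pair was taken from the sample labels, 1 library of each line out of the 8 libraries of the series, and the comparison covered the 13910 genes listed in both deposited tables, out of 14800 in the VCaP table and 14809 in the CWR-R1 table. VCaP was derived from a vertebral metastasis of prostate cancer and is known for a fusion of TMPRSS2 with the ETS factor gene ERG. CWR-R1 was derived from a xenograft of prostate cancer that had regrown after androgen withdrawal. The labels name no drug, dose, culture medium or passage for either library. The series set sensitive cells of each lineage against their enzalutamide-resistant (ENZR) counterparts in polyadenylated RNA, and enzalutamide is a drug that blocks androgen signalling. It also holds 2 libraries of sensitive C4-2B, a derivative of LNCaP cells, which served here as a further line.

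Androgen signalling, together with the pioneer factors FOXA1, HOXB13 and GATA2, drives the secretory program of luminal prostate cells. Kallikreins such as KLK3 (prostate-specific antigen) and KLK2 and the surface protease TMPRSS2 are among its classical targets. Fusion of TMPRSS2 to ERG places an ETS factor under androgen control in many prostate cancers. Cell lines of this disease are known to differ in this program, in the ETS factor they carry and in the cancer-testis genes they transcribe.

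A level below is the number of reads of a gene per 1000000 reads in the 13910 shared genes of that library. These reads numbered 17942982 in VCaP and 15207858 in CWR-R1, and the 10 most abundant genes held 4.8% and 5.23% of them. A log2 ratio is log2((VCaP level + 1)/(CWR-R1 level + 1)), so a positive value means a higher level in VCaP and the ratio understates differences of genes with low levels. Folds are ratios of the levels themselves, with an exact (Clopper-Pearson) 95% interval that covers counting error only. A gene without a read in one library was set against a floor of 3 reads, a level of 0.167 in VCaP and 0.197 in CWR-R1, and its fold is given as a lower limit. With 1 library per line there was no replicate and no test. The tables of the lines were scaled separately by the authors, and levels are not comparable between genes because transcript length was not taken into account. Beside these differences, the 2 replicate libraries of C4-2B differed at least 2-fold at 21 of 10970 genes (0.191%), and those of C4-2BENZR at 12 of 11230 (0.107%).

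Which genes could be compared depended on the second library of each table. Every listed gene had a deposited value above 1 in at least 1 of its table's libraries, so a gene without a read in VCaP was listed only where the library labelled VCaPENZR held it. Across the 12868 genes of all 3 tables, that library had a Pearson correlation of log2(level + 1) of 0.940 with CWR-R1ENZR and of 0.728 with VCaP. Of the genes compared below, 108 had no read in VCaP and 16 had none in CWR-R1, and the part of the listing in this imbalance was not tested. Another 339 genes with a level of at least 5 in VCaP were listed in its table only, and 96 in CWR-R1 likewise. VCaP and CWR-R1 themselves correlated at 0.768 over the same 12868 genes, which is a description across genes that are not independent.

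Both libraries carried luminal prostate markers. All 11 of the luminal markers used to check the labels were listed in both tables, and their summed level was 12717 in VCaP and 3520 in CWR-R1. ERG, the fusion partner known in VCaP, was listed in the VCaP table at a level of 419 and was not listed in the CWR-R1 table. The basal markers KRT5 and TP63 were listed in neither table. Of the other basal markers, KRT14 was listed in the VCaP table only, with 259 reads. ITGB4 had 305 reads in VCaP and 114 in CWR-R1, and KRT15 had 9 in VCaP and 0 in CWR-R1. Immune markers summed to 9.36 in VCaP and 2.63 in CWR-R1, fibroblast markers to 28.9 and 32.9, and endothelial markers to 3.07 and 5.59. PTPRC, CD3D, CD79A, COL1A2, COL3A1, DCN, PECAM1 and CDH5, which define those cells, were listed in neither table. LCP1, an actin-bundling protein of blood cells that many carcinoma lines also transcribe, had levels of 897 in VCaP and 88.1 in CWR-R1. Of the longer lists of other cell types, 1 immune member past the filter (LCP1) was at least 2-fold higher in VCaP, 3 fibroblast members gave 0 higher in VCaP and 2 in CWR-R1, and 3 endothelial members gave 1 and 1.

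Among 12311 genes with a level of at least 5 in at least 1 of the libraries, 1782 (14.5%) were at least 2-fold higher in VCaP and 3031 (24.6%) were at least 2-fold higher in CWR-R1, so that 39.1% differed at least 2-fold in either direction. The median log2 ratio of all these genes was -0.21. The split depended on the scaling: with trimmed mean of M-values (TMM) scaling the counts were 2254 and 2421 and the median moved to 0.00, and with the median ratio set to 0 they were 2236 and 2435. List medians below are therefore given together with their distance from the median of all genes, and counts of list members are read against 14.5% and 24.6%. Differences of at least 16-fold were found at 142 genes higher in VCaP and 203 higher in CWR-R1. In bulk RNA, fewer cells of a kind and less transcript per cell cannot be told apart.

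**Figure D1:**
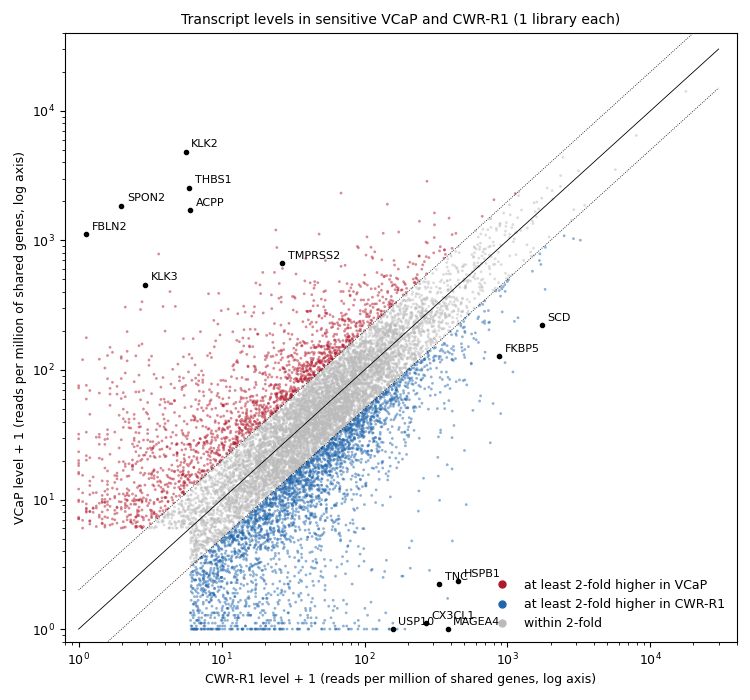
Each point is 1 of the 12311 genes, with its level + 1 in CWR-R1 on the x axis and in VCaP on the y axis, in reads per 1000000 in shared genes on log axes. Red points (1782) were at least 2-fold higher in VCaP and blue points (3031) in CWR-R1, the solid line marks equal levels and the dotted lines mark 2-fold differences. KLK2, SPON2 and FBLN2 lie far above the line, and MAGEA4 and USP10 on the lower edge with no read in VCaP.

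The kallikreins KLK2 and KLK3 were among the genes with the highest ratio in VCaP. Their promoter sequences are shown because their start regions share a run that is known from KLK3 as an androgen response element. The windows reach from 250 bases before to 50 bases after the start in RefSeq (GRCh38.p14), KLK3 at chr19:50854665-50854964 and KLK2 at chr19:50873189-50873488, both on the plus strand, and the capitals mark GAACAGCAAGTGCT, the longest run shared by both windows that holds GAACA, the core of the half-site of such elements.
KLK3: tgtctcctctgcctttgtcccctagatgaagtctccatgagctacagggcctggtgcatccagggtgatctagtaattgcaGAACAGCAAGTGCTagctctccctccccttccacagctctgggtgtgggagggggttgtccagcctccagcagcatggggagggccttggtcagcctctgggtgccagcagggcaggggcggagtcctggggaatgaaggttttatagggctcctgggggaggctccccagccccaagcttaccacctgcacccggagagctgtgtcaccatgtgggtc
KLK2: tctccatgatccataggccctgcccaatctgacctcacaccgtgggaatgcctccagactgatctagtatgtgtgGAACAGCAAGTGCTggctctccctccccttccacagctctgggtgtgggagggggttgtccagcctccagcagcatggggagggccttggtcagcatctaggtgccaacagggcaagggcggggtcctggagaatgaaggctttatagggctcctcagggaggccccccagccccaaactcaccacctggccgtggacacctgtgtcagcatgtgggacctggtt
The capitals begin at base 82 of the KLK3 window and base 76 of the KLK2 window, and the longest run shared by both windows was 80 bases. Searched on both strands, these letters were found in 2 of 35116 promoter windows of the same length (0.0057%), those of KLK2 and KLK3. The letters were taken from these 2 windows, so both hits were fixed in advance. A match of letters is a description and shows no binding.

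The run was read from the reference genome and not from either line, and its part in the levels was not tested. Neither gene was near its VCaP level in CWR-R1. KLK2 had levels of 4841 in VCaP and 4.60 in CWR-R1, 1052-fold (interval 832 to 1349) higher in VCaP. KLK3 had levels of 455 in VCaP and 1.91 in CWR-R1, or 239-fold (interval 166 to 357) higher in VCaP. The third kallikrein of the set, KLK4, had 270.0 in VCaP and 151 in CWR-R1, a difference of 1.79-fold (interval 1.71 to 1.89) that did not reach 2-fold.

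Of the pioneer factors, HOXB13 differed most. It had levels of 697 in VCaP and 52.3 in CWR-R1, 13.3-fold (interval 12.4 to 14.3) higher in VCaP. FOXA1 had 841 in VCaP and 362 in CWR-R1 (2.33-fold, interval 2.25 to 2.40) and GATA2 had 749 in VCaP and 269 in CWR-R1 (2.78-fold, interval 2.69 to 2.88), both higher in VCaP. The glucocorticoid receptor gene NR3C1 and the mineralocorticoid receptor gene NR3C2, which encode receptors of other steroids, were higher in CWR-R1, NR3C1 at 42.3 in CWR-R1 against 13.8 in VCaP and NR3C2 at 34.0 in CWR-R1 against 6.13 in VCaP. GRHL2, an epithelial transcription factor, had 461 in VCaP and 131 in CWR-R1. NCOA2, a receptor coactivator, had 188 in VCaP and 52.1 in CWR-R1, and WHSC1, a histone H3 methyltransferase, had 158 in VCaP and 475 in CWR-R1.

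Androgen-activated genes were mostly higher in VCaP, with exceptions. Of 53 genes on the list, 44 were listed in both tables and 42 passed the filter. At least 2-fold higher in VCaP were 26, 4 were at least 2-fold higher in CWR-R1, and the median log2 ratio was 1.53, 1.74 above that of all genes. ACPP, prostatic acid phosphatase, had levels of 1714 in VCaP and 5.0 in CWR-R1, 343-fold (interval 274 to 435) higher in VCaP. NDRG1, a differentiation and stress gene, had 2318 in VCaP and 67.5 in CWR-R1, and TMPRSS2 had 669.6 in VCaP and 25.6 in CWR-R1, or 26.2-fold (interval 23.7 to 29.0). SLC45A3 (prostein), a luminal membrane transporter, had 259 in VCaP and 15.3 in CWR-R1. The members that were higher in CWR-R1 were FKBP5, TSC22D3, MPHOSPH9 and NCAPD3. FKBP5, a cochaperone of steroid receptors, had 126 in VCaP and 874 in CWR-R1, 6.92-fold (interval 6.61 to 7.23) higher in CWR-R1. TSC22D3 (GILZ), best known as a glucocorticoid-induced gene, had 2.95 in VCaP and 73.7 in CWR-R1, or 25-fold (interval 18.9 to 33.5).

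The luminal list gave a similar count, and it shares members with the androgen-activated list. Of 30 luminal members past the filter, 17 were at least 2-fold higher in VCaP and 1, the claudin gene CLDN7, was higher in CWR-R1 (114 in CWR-R1 against 53.7 in VCaP), with a median log2 ratio of 1.33, 1.54 above that of all genes. With TMM scaling 19 were at least 2-fold higher in VCaP and 0 in CWR-R1, so CLDN7 no longer reached 2-fold. FOLH1, which encodes prostate-specific membrane antigen, had levels of 1159 in VCaP and 172 in CWR-R1, 6.72-fold (interval 6.45 to 7.0) higher in VCaP. KRT19, a simple-epithelial keratin, had 128 in VCaP and 1.51 in CWR-R1, whereas KRT8 and KRT18, the keratins that define the luminal layer, had 437 in VCaP against 659.8 in CWR-R1 (KRT8) and 295 in VCaP against 226 in CWR-R1 (KRT18). CDH1, the epithelial cadherin, was nearly equal at 364 in VCaP and 377 in CWR-R1, and EPCAM had 320.2 in VCaP against 471 in CWR-R1. KRT8, KRT18, CDH1 and EPCAM thus lay within 2-fold, and KRT19 and CLDN7 did not.

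**Figure D2:**
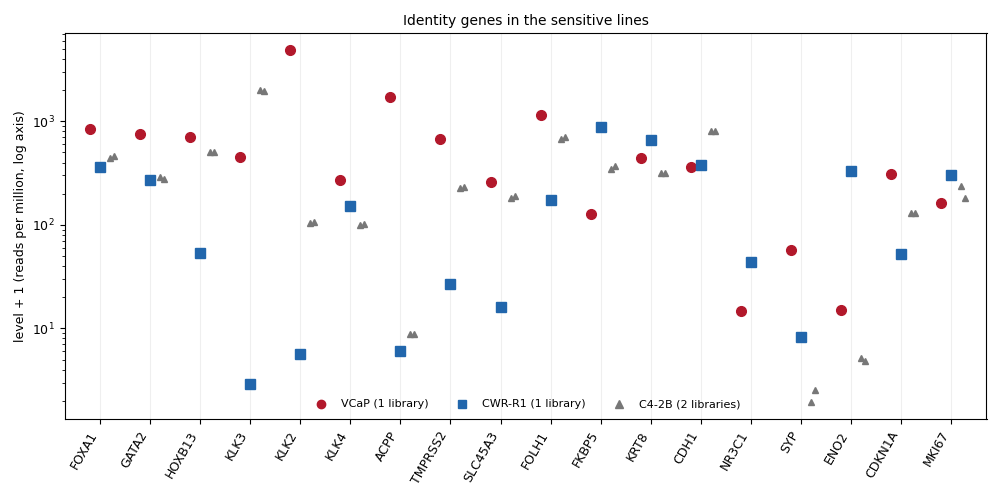
Level + 1 of 18 identity genes in reads per 1000000 on a log axis, for VCaP (red, 1 library), CWR-R1 (blue, 1 library) and the C4-2B libraries (grey, 2 libraries, scaled over the genes of all 3 tables). KRT8 and CDH1 lie close together in VCaP and CWR-R1, whereas KLK2, KLK3, ACPP, TMPRSS2 and HOXB13 are higher in VCaP and FKBP5 and ENO2 are higher in CWR-R1.

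Genes repressed by androgen were not the mirror image of the activated ones. Of 14 members past the filter, 6 were at least 2-fold higher in VCaP and 2 in CWR-R1, with a median log2 ratio of 0.64, 0.85 above that of all genes. CAMK2N1, an inhibitor of CaM kinase II, had levels of 486 in VCaP and 37.2 in CWR-R1, and SESN3, a sestrin of the stress response, had 884 in VCaP against 109.9 in CWR-R1. CDH2, neural cadherin, and UGT2B15, which inactivates androgens by glucuronidation, were the members higher in CWR-R1, CDH2 at 34.7 in CWR-R1 against 3.46 in VCaP and UGT2B15 at 13.2 in CWR-R1 against 4.29 in VCaP. The list of androgen synthesis and steroid conversion was split. Of its 16 members past the filter, 4 were at least 2-fold higher in VCaP and 5 in CWR-R1, with a median log2 ratio of -0.21, close to that of all genes. AKR1C3, which makes testosterone from androstenedione, had 50.6 in VCaP and 23.7 in CWR-R1 and HSD17B6, an oxidative hydroxysteroid dehydrogenase, had 32.7 in VCaP against 8.15 in CWR-R1. The steroid reductase gene SRD5A1 was higher in CWR-R1, at 13.4 in VCaP and 45.8 in CWR-R1.

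The ETS family differed by member. ERG was listed for VCaP only (above), while ETV1, ETV4 and ETV5, members of the PEA3 subfamily, were higher in CWR-R1. ETV1 had levels of 0.111 in VCaP and 59.8 in CWR-R1 (2 and 910 reads), 537-fold (interval 148 to 4439.5) higher in CWR-R1. ETV5 had 0.111 in VCaP and 23.8 in CWR-R1 (2 and 362 reads, 214-fold, interval 58.7 to 1770.1), and ETV4 had no read in VCaP and 13.0 in CWR-R1 (at least 77.5-fold). Genes known to be high in tumours with ERG fusions were among the largest differences in VCaP. TDRD1, a tudor-domain gene of the germline, had 128 in VCaP and 0.592 in CWR-R1, or 217-fold (interval 114 to 474). PLA1A, a phospholipase, had 294 in VCaP and 10.1 in CWR-R1, NCALD, a neuronal calcium sensor, had 84.9 in VCaP against 2.50 in CWR-R1, and CRISP3, a secreted cysteine-rich protein, had 565 in VCaP against 22.4 in CWR-R1. ARHGDIB, a GDP-dissociation inhibitor of small GTPases, had 71.6 in VCaP and no read in CWR-R1 (at least 363-fold). Of 30 members of the list past the filter, 14 were at least 2-fold higher in VCaP and 5 in CWR-R1, with a median log2 ratio of 0.84, 1.05 above that of all genes.

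The genes with the largest ratios lay partly outside these lists. In VCaP they included FBLN2, a matrix glycoprotein, with 19928 reads against 2 in CWR-R1 (levels 1111 in VCaP against 0.132 in CWR-R1, 8445-fold, interval 2338 to 69739). SPON2, a secreted matrix protein of prostate cancer, had levels of 1858 in VCaP and 0.986 in CWR-R1, 1884-fold (interval 1142 to 3366) higher. THBS1, thrombospondin, had 2554 in VCaP and 4.93 in CWR-R1, and IGFBP3, a carrier of insulin-like growth factors, had 784 in VCaP against 2.63 in CWR-R1. APOD, a lipocalin, had 305 in VCaP against 1.12 in CWR-R1, PLA2G2A, a secreted phospholipase, had 335 in VCaP against 1.78 in CWR-R1, and ACSS1, the mitochondrial acetyl-CoA synthetase, had 292 in VCaP against 1.71 in CWR-R1. Many of these products are secreted. SCGN, a calcium-binding protein of endocrine cells, had 2136 reads in VCaP and 1 in CWR-R1 (1810.4-fold, interval 325 to 71540.1). KIAA1217, TMEM45B, OBSL1 and SSTR5-AS1 completed the 15 highest together with ACPP, KLK2 and KLK3, and reads of SSTR5-AS1 cannot be told apart from those of its sense partner because no source at hand states how strand was used.

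The 15 genes with the lowest ratios were led by MAGEA4, and 10 of them had no read in VCaP. CX3CL1, the chemokine fractalkine, had levels of 0.111 in VCaP and 268 in CWR-R1 (2 reads in VCaP, 2404-fold, interval 665 to 19857 higher in CWR-R1). The small heat shock gene HSPB6 had 0.725 in VCaP and 380.1 in CWR-R1, a difference of 525-fold (interval 307 to 986), and its relative HSPB1 had 1.34 in VCaP and 449 in CWR-R1, a difference of 336-fold (interval 226 to 525). PDE3A, a cyclic nucleotide phosphodiesterase, had no read in VCaP and 168 in CWR-R1 (at least 1007-fold), and TPPP3, a tubulin-polymerizing protein, had 161 (at least 960.4-fold). USP10, a deubiquitinase, had 156 (at least 935-fold) and PPP2R2A, a regulatory subunit of protein phosphatase 2A, had 121 (at least 726-fold), again with no read in VCaP. TNC, the matrix protein tenascin, had 1.23 in VCaP and 333 in CWR-R1, and YBX2, a germ-cell RNA-binding protein, had 0.111 in VCaP and 157 in CWR-R1 (2 reads in VCaP, 1405-fold, interval 389 to 11609.9). The other members of the 15 were cancer-testis genes.

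Cancer-testis genes, normally silent outside the germline and often activated in tumours by loss of promoter methylation, were the list furthest toward CWR-R1. Of 57 genes, 26 were listed in both tables and 21 passed the filter. Of these, 16 were at least 2-fold higher in CWR-R1 and 3 in VCaP, with a median log2 ratio of -4.55, -4.34 relative to that of all genes. No read was found in one of the libraries for 14 of the members past the filter, and with these at their limits against the floor the median was -7.06. A member without a read in VCaP was listed only where the library labelled VCaPENZR held it. It passed the filter only through CWR-R1, so its direction was fixed by how it entered. Another 30 of the 57 genes were listed in neither table. The part of the listing in these medians was not tested. The promoter of MAGEA3 is shown because such promoters are known to be controlled through their CG sites, which are in capitals. It lies at chrX:152698544-152698843 on the plus strand (RefSeq, GRCh38.p14).
MAGEA3: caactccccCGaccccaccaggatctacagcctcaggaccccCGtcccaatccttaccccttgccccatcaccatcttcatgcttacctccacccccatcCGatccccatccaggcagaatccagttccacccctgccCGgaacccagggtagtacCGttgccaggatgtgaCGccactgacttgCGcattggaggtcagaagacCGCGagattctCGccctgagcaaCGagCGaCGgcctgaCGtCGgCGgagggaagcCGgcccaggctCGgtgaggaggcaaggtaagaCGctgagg
The window holds 19 CG sites, against a median of 14 over all 35116 windows, and 42.9% of windows hold at least as many. The MAGEA6 window, at chrX:152769640-152769939 on the minus strand, is identical over all 300 bases, and methylation was not measured.

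MAGEA4 had no read in VCaP and a level of 381 in CWR-R1 (at least 2279-fold higher). MAGEA3 had 113 in CWR-R1, MAGEA6 75.9 and MAGEA1 103, each with no read in VCaP. SSX2B had 191 and CTAG2 118 in CWR-R1, also without a read in VCaP. CTAG1A and CTAG1B, copies of the gene for NY-ESO-1, were listed with the same 2248 reads each. Reads of near-identical copies such as these, the MAGEA genes and SSX genes may have been split or counted more than once, so the single values are uncertain. The members higher in VCaP were SYCP2, a protein of the meiotic chromosome axis, with 68.4 in VCaP and 1.84 in CWR-R1, and MAGED2 and MAGED4, MAGED2 at 275 in VCaP against 52.2 in CWR-R1 and MAGED4 at 8.53 in VCaP against 0.526 in CWR-R1. MAGED2 is not restricted to the germline.

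**Figure D3:**
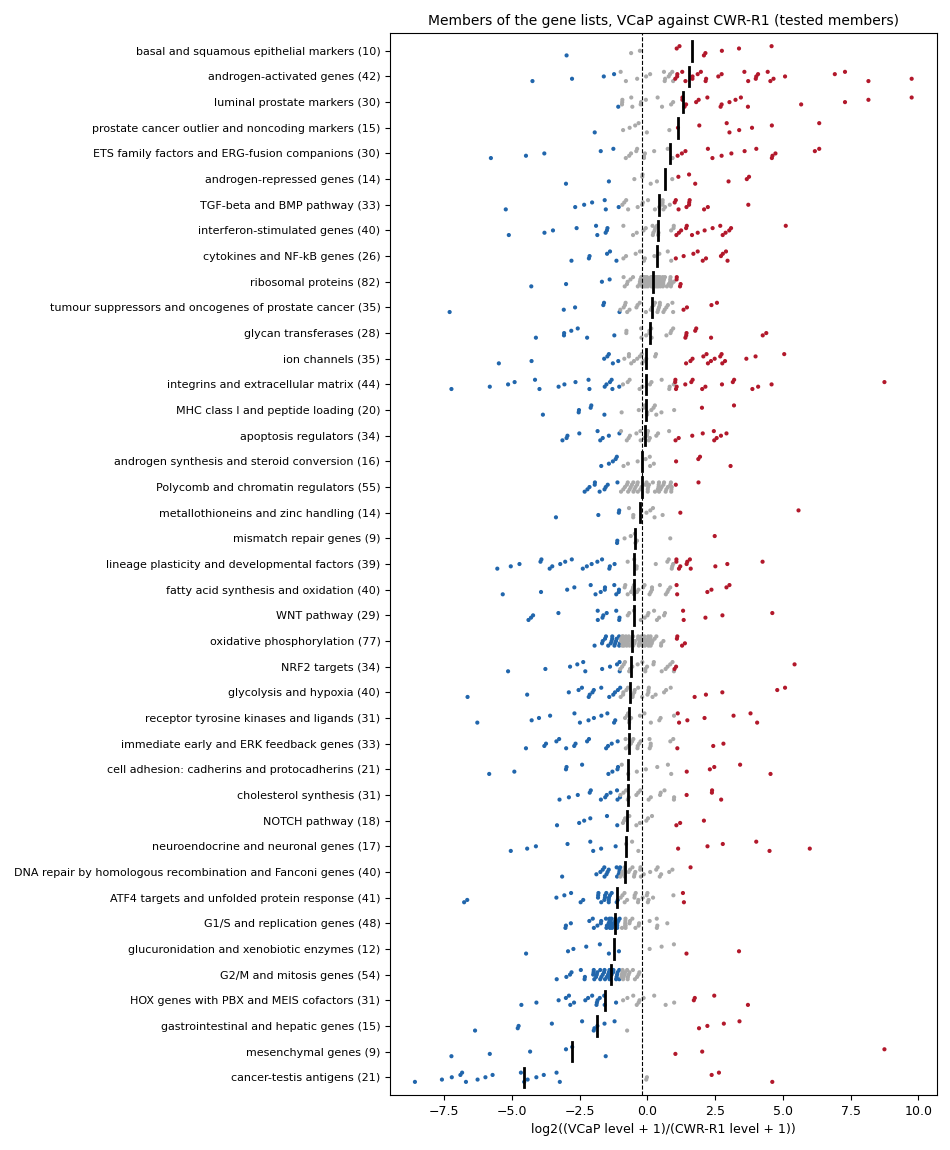
Log2 ratio of each member past the filter for lists with at least 5 such members (number in brackets), red where at least 2-fold higher in VCaP, blue where at least 2-fold higher in CWR-R1. Black bars mark list medians, ordered from -4.55 for cancer-testis antigens to 1.64 for basal and squamous markers, and the dashed line marks the median of all genes, -0.21.

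Developmental and lineage genes differed member by member. Of 31 HOX, PBX and MEIS genes past the filter, 17 were at least 2-fold higher in CWR-R1 and 4 in VCaP, with a median log2 ratio of -1.57, -1.36 relative to that of all genes. With only members of level 20 or more the median was 0.25, so the sign of this list changed when genes of low level were left out. The posterior HOXC genes were the largest differences toward CWR-R1, with HOXC10 at 0.725 in VCaP and 42.3 in CWR-R1 (58.4-fold, interval 33.9 to 110.2) and HOXC13 at 2.40 in VCaP and 57.0 in CWR-R1. HOXA13, a gene of the distal urogenital tract, and HOXB13 were higher in VCaP, HOXA13 at 83.5 in VCaP against 14.3 in CWR-R1. Among 39 other lineage factors, 11 were at least 2-fold higher in VCaP and 18 in CWR-R1 (median -0.49, -0.28 relative to that of all genes). TRPS1, a GATA-type repressor, had 0.111 in VCaP and 50.6 in CWR-R1 (2 reads in VCaP, 454-fold, interval 125 to 3758). KLF5, an epithelial Krüppel-like factor, had 4.63 in VCaP and 83.5 in CWR-R1, while the nuclear receptor gene NR2F2 was higher in VCaP, at 228 against 28.6 in CWR-R1, and SOX9 at 52.5 in VCaP against 16.6 in CWR-R1.

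Neuroendocrine and neuronal genes were divided between the lines. Of 17 members past the filter, 6 were at least 2-fold higher in VCaP and 8 in CWR-R1 (median -0.79, -0.58 relative to that of all genes). Another 6 members with a level of at least 5 were listed in the VCaP table only, and 0 in the CWR-R1 table only. On the VCaP side were NEFL, a neurofilament, at 126 in VCaP and 0.986 in CWR-R1, the vesicle protein gene SYP at 56.2 in VCaP against 7.30 in CWR-R1, and INSM1, a neuroendocrine transcription factor, at 15.2 with no read in CWR-R1 (at least 77.1-fold). Among those listed for VCaP only were CHGA and CHGB, the granins of secretory granules, which had levels of 67.9 and 107. On the CWR-R1 side were ENO2, neuron-specific enolase, at 14.2 in VCaP and 327 in CWR-R1 (23.1-fold, interval 20.4 to 26.3), TUBB3, a neuronal tubulin, at 12.1 in VCaP and 100.3 in CWR-R1, SOX2, a stem-cell factor, at 0.111 in VCaP and 35.6 in CWR-R1 (2 reads in VCaP, 319-fold, interval 87.9 to 2642), and POU3F2 (BRN2), a neural factor, at 16.3 with no read in VCaP (at least 97.5-fold).

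Few mesenchymal and basal genes passed the filter, and each list had members on both sides. Of 9 mesenchymal members, 6 were at least 2-fold higher in CWR-R1 and 3 in VCaP (median -2.77, -2.56 relative to that of all genes), and 7 more, 1 of them with a level of at least 5, were listed in the CWR-R1 table alone. Summed over the members listed in both tables, the level was 2691 in VCaP and 981 in CWR-R1, most of it in VCaP from THBS1 (above). The collagen VI genes COL6A1, at 68.4 in VCaP against 32.9 in CWR-R1, and COL6A2, at 37.8 in VCaP against 8.55 in CWR-R1, were the other members higher in VCaP. FN1, fibronectin, had levels of 8.14 in VCaP and 513 in CWR-R1 (63.1-fold, interval 53.6 to 74.8), TWIST1, a driver of epithelial-mesenchymal transition, had no read in VCaP and 19.1 in CWR-R1, and VIM, vimentin, had 0.223 in VCaP against 7.36 in CWR-R1. The value of VIM in CWR-R1 rests on 112 reads. Of 10 basal and squamous members, 7 were at least 2-fold higher in VCaP and 1 in CWR-R1 (median 1.64, 1.85 above that of all genes). ITGA6, a laminin-binding integrin, had 225 in VCaP and 8.42 in CWR-R1, and CD44, a hyaluronan receptor, had 19.5 in VCaP against 2.04 in CWR-R1. BCL2, an inhibitor of apoptosis, was the member higher in CWR-R1, at 9.53 in CWR-R1 against 0.334 in VCaP.

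Gastrointestinal and hepatic genes that passed the filter were mostly higher in CWR-R1, 10 of 15 by at least 2-fold against 4 in VCaP (median -1.84, -1.64 relative to that of all genes). A further 4 members with a level of at least 5 were in the VCaP table only, against 0 in the CWR-R1 table only. HLF, a circadian bZIP factor of the liver, had levels of 0.279 in VCaP and 104 in CWR-R1 (373-fold, interval 159.5 to 1151). LGALS4, an intestinal galectin, had 1.67 in VCaP and 72.6 in CWR-R1, and VIL1, villin of the brush border, had 0.111 in VCaP and 28.9 in CWR-R1 (2 reads in VCaP, 259.6-fold, interval 71.4 to 2150.0). CEACAM6 and CEACAM5, adhesion molecules of the gut, were higher in VCaP, with 184 and 109 reads there against 1 and 0 in CWR-R1. Enzymes of glucuronidation and xenobiotic metabolism were at least 2-fold higher in CWR-R1 at 7 and in VCaP at 2 of 12 members (median -1.23, -1.02 relative to that of all genes). A further 4 members with a level of at least 5 were in the VCaP table only, against 0 in the CWR-R1 table only. AHR, the aryl hydrocarbon receptor, had 4.79 in VCaP and 37.4 in CWR-R1, and its target CYP1A1 had 8.97 in VCaP against 32.6 in CWR-R1.

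Receptor tyrosine kinases and their ligands differed in both directions. Of 31 members past the filter, 7 were at least 2-fold higher in VCaP and 12 in CWR-R1 (median -0.67, -0.46 relative to that of all genes). IGF1R, the receptor of insulin-like growth factors, had levels of 549 in VCaP and 32.2 in CWR-R1, 17.1-fold (interval 15.6 to 18.7) higher in VCaP. The ephrin receptor genes EPHA7 and EPHA2 were higher in CWR-R1, EPHA7 at 0.167 in VCaP and 89.4 in CWR-R1 (3 reads in VCaP, 535-fold, interval 183 to 2597) and EPHA2 at 1.56 in VCaP and 48.4 in CWR-R1. PDGFRA, a receptor of platelet-derived growth factor, was listed in the CWR-R1 table only, at a level of 504. EGFR, ERBB2 and MET were within 2-fold, EGFR at 29.6 in VCaP and 45.4 in CWR-R1, ERBB2 at 93.8 in VCaP and 149 in CWR-R1 and MET at 7.52 in VCaP and 14.1 in CWR-R1. Of the IGF-binding proteins, IGFBP3 (above) and IGFBP5 (29.3 in VCaP against 7.56 in CWR-R1) were at least 2-fold higher in VCaP among 4 members past the filter, and 0 in CWR-R1.

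Among developmental signalling pathways, the frizzled receptors of WNT ligands showed opposite members. FZD4 had levels of 453 in VCaP and 17.6 in CWR-R1, 25.8-fold (interval 22.8 to 29.2) higher in VCaP, and FZD8 had 22.9 in VCaP and 499 in CWR-R1, 21.8-fold (interval 19.7 to 24.1) higher in CWR-R1. NOTUM, a secreted WNT inhibitor, and LGR5, an R-spondin receptor, were higher in CWR-R1, NOTUM at 38.3 in CWR-R1 against 1.11 in VCaP and LGR5 at 11.4 in CWR-R1 against 0.279 in VCaP. LGR4, also an R-spondin receptor, was higher in VCaP, at 284 against 40.8 in CWR-R1. Of 29 WNT genes past the filter, 5 were at least 2-fold higher in VCaP and 12 in CWR-R1 (median -0.49, -0.28 relative to that of all genes). NOTCH genes gave 3 higher in VCaP and 6 in CWR-R1 of 18 (median -0.74, -0.53 relative to that of all genes), with the ligand gene JAG1 higher in VCaP at 91.0 in VCaP against 20.6 in CWR-R1 and the receptor gene NOTCH1 and the target HEY1 higher in CWR-R1, NOTCH1 at 59.3 in CWR-R1 against 11 in VCaP and HEY1 at 25.8 in CWR-R1 against 3.68 in VCaP. TGF-beta and BMP genes gave 10 higher in VCaP and 7 in CWR-R1 of 33 (median 0.44, 0.65 above that of all genes). The ligand TGFB1 had 0.502 in VCaP and 55.2 in CWR-R1 (110.0-fold, interval 57.7 to 241), and the ligand BMP7 had 90.6 in VCaP and 5.92 in CWR-R1 (15.3-fold, interval 12.4 to 19.1).

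Genes of interferon response and antigen presentation had members on both sides. Of 40 interferon-stimulated genes past the filter, 15 were at least 2-fold higher in VCaP and 9 in CWR-R1 (median 0.38, 0.59 above that of all genes). Against 14.5% and 24.6% of all genes, of these counts only that in VCaP lay above its share. With TMM scaling the counts were 18 and 9. OAS3, a sensor of double-stranded RNA, had levels of 90.2 in VCaP and 1.64 in CWR-R1 (54.9-fold, interval 37.0 to 85.1), and IFIH1 (MDA5), another such sensor, had 29.4 in VCaP against 3.42 in CWR-R1. Antiviral membrane proteins lay on the other side: IFITM1 had no read in VCaP and 33.6 in CWR-R1 (at least 201-fold), and BST2 (tetherin) had 1 read in VCaP and 208 in CWR-R1 (245-fold, interval 43.6 to 9739). The MHC class I heavy chain genes HLA-B, HLA-C and HLA-E were higher in CWR-R1, HLA-B at 23.1 in VCaP and 71.2 in CWR-R1, HLA-C at 35.6 in VCaP and 155 in CWR-R1 and HLA-E at 9.47 in VCaP and 151 in CWR-R1, while their light chain gene B2M was equal at 297 in VCaP and 298 in CWR-R1. HLA genes vary in sequence between individuals and have close relatives, so read assignment may differ between lines and these values are uncertain. The whole list of class I and peptide-loading genes gave 2 higher in VCaP and 6 in CWR-R1 of 20, with a median of -0.05 that turned to 0.16 under TMM scaling. NF-kB and cytokine genes gave 10 higher in VCaP and 6 in CWR-R1 of 26 (median 0.35, 0.56 above that of all genes), with the adhesion molecule gene ICAM1 at 22.1 in VCaP and 1.97 in CWR-R1 and RELB, an NF-kB subunit, at 23.2 in VCaP against 2.24 in CWR-R1.

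Cell cycle genes were mostly lower in VCaP than in CWR-R1, by modest amounts. All 54 genes of the G2/M and mitosis list passed the filter, 54 had a log2 ratio below 0, 36 were at least 2-fold higher in CWR-R1 and 0 in VCaP (median -1.35, -1.14 relative to that of all genes). With TMM scaling 54 were still below 0 and 30 were at least 2-fold higher in CWR-R1. PTTG1, securin, had levels of 10.9 in VCaP and 119.6 in CWR-R1 (11-fold, interval 9.49 to 12.8), AURKB, a mitotic kinase, had 19.8 in VCaP and 164 in CWR-R1, and ASPM, a spindle-pole protein, had 49.3 in VCaP and 363 in CWR-R1. The proliferation marker MKI67 was within 2-fold, at 161 in VCaP and 301 in CWR-R1. Of 48 G1/S and replication genes, 30 were at least 2-fold higher in CWR-R1 and 0 in VCaP (median -1.18, -0.97 relative to that of all genes), among them the licensing factor gene CDT1 at 28.7 in VCaP and 240.5 in CWR-R1 and the helicase component gene GINS2 at 7.97 in VCaP and 62.5 in CWR-R1. Homologous recombination and Fanconi genes gave 15 higher in CWR-R1 and 1 in VCaP of 40 (median -0.84, -0.63 relative to that of all genes; 9 and 3 with TMM scaling), with FANCA at 13.3 in VCaP and 126 in CWR-R1. MUS81, a structure-specific nuclease, was the member higher in VCaP, at 85.2 in VCaP against 27.6 in CWR-R1. Growth state and cell density at harvest are not given in the labels. Of 9 mismatch repair genes, MSH6 was among those higher in CWR-R1 (87.7 in CWR-R1 against 39.9 in VCaP, no longer 2-fold with TMM scaling) and MSH3 was higher in VCaP (21.2 in VCaP against 2.96 in CWR-R1).

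Ribosomal protein genes differed little. Of 82 members, 4 were at least 2-fold higher in VCaP and 4 in CWR-R1 (median 0.22, 0.43 above that of all genes), or 11 and 4 with TMM scaling, and the extremes were the paralogs RPL39L, with no read in VCaP and 18.5 in CWR-R1, and RPL22L1, at 11.8 in VCaP and 102 in CWR-R1. RPL22 itself lay the other way at 779.7 in VCaP against 367 in CWR-R1. Ribosomal protein genes have many processed copies, so their values are uncertain. Genes of oxidative phosphorylation gave 17 higher in CWR-R1 and 4 in VCaP of 77 (median -0.58, -0.37 relative to that of all genes; 11 and 4 with TMM scaling), including the cytochrome oxidase genes COX4I1 at 86.4 in VCaP and 336 in CWR-R1 and COX8A at 685 in VCaP and 261 in CWR-R1.

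Genes of lipid and sugar metabolism had members on both sides. Of all genes, 24.6% were higher in CWR-R1 and 14.5% in VCaP. In each list here the count higher in VCaP lay near that share. On the CWR-R1 side the fatty acid list lay nearest to the share. With TMM scaling, for which counts are given beside the main ones, 2421 of all genes were higher in CWR-R1 and 2254 in VCaP. SCD, the stearoyl-CoA desaturase, had levels of 222 in VCaP and 1730.3 in CWR-R1, 7.81-fold (interval 7.55 to 8.07) higher in CWR-R1, and SREBF1, which encodes the sterol-regulated factor SREBP-1, had 81.6 in VCaP and 489 in CWR-R1. Fatty acid genes gave 13 higher in CWR-R1 and 6 in VCaP of 40 (median -0.49, -0.28 relative to that of all genes; 10 and 7 with TMM scaling). AMACR, the racemase used as a prostate cancer marker, was higher in VCaP at 186 in VCaP and 21.8 in CWR-R1 and DECR1, of polyunsaturated fatty acid oxidation, at 26.5 in VCaP against 2.63 in CWR-R1. Cholesterol synthesis gave 12 higher in CWR-R1 and 4 in VCaP of 31 (median -0.72, -0.51 relative to that of all genes; 9 and 6 with TMM scaling), with MVD at 49.1 in CWR-R1 against 4.29 in VCaP toward CWR-R1 and the sterol reductase gene TM7SF2 at 745 in VCaP against 112 in CWR-R1 toward VCaP. Glycolysis and hypoxia genes gave 15 higher in CWR-R1 and 5 in VCaP of 40 (median -0.63, -0.42 relative to that of all genes; 13 and 6 with TMM scaling). HK2, hexokinase, had 22.7 in VCaP and 125 in CWR-R1 and SLC16A3, a lactate exporter, had 8.30 in VCaP against 68.4 in CWR-R1, whereas EPAS1 (HIF-2 alpha) had 284 in VCaP against 40.8 in CWR-R1 and CA12, a carbonic anhydrase, 196 in VCaP against 6.12 in CWR-R1.

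ATF4 and unfolded-protein genes were more often higher in CWR-R1 (22 of 41, against 24.6% of all genes), and the other stress lists lay nearer to the shares of all genes. Of 41 ATF4 and unfolded-protein genes past the filter, 22 were at least 2-fold higher in CWR-R1 and 2 in VCaP (median -1.13, -0.92 relative to that of all genes). SLC7A5, the large neutral amino acid transporter, had levels of 1.84 in VCaP and 284 in CWR-R1 (154-fold, interval 109.7 to 224). It lies in a run of neighbouring genes that were mostly higher in CWR-R1 as well (below). ALDH1L2, of mitochondrial folate metabolism, had 3 reads in VCaP and 1911 in CWR-R1 (752-fold, interval 257 to 3648), and PCK2, mitochondrial PEP carboxykinase, had 17.1 in VCaP and 150.4 in CWR-R1. NRF2 targets gave 11 higher in CWR-R1 and 3 in VCaP of 34 (median -0.60, -0.39 relative to that of all genes; 8 and 6 with TMM scaling). HMOX1, heme oxygenase, had 0.947 in VCaP and 25.4 in CWR-R1, UGDH, which makes UDP-glucuronate, had 124 in VCaP against 901 in CWR-R1, and GPX3, a secreted glutathione peroxidase, was higher in VCaP, at 84.8 against 0.986 in CWR-R1. Immediate early and ERK feedback genes gave 14 higher in CWR-R1 and 3 in VCaP of 33 (median -0.70, -0.49 relative to that of all genes; 13 and 5 with TMM scaling), with IER5 at 76.4 in CWR-R1 against 4.79 in VCaP toward CWR-R1 and SPRY4, an ERK feedback inhibitor, at 43.3 in VCaP against 5.33 in CWR-R1 toward VCaP.

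Tumour suppressors and oncogenes of prostate cancer were close in most cases. Of 35 members past the filter, 4 were at least 2-fold higher in VCaP and 6 in CWR-R1 (median 0.17, 0.38 above that of all genes). RB1, the retinoblastoma gene, had levels of 67.5 in VCaP and 70.1 in CWR-R1 and the oncogene MYC 437 in VCaP and 400.3 in CWR-R1. Both were within 2-fold, and RNA levels do not show whether the proteins are intact. CDKN1A (p21) was 6.03-fold (interval 5.59 to 6.51) higher in VCaP at 307 in VCaP against 50.8 in CWR-R1, and CDKN2A, the locus of p16, was 6.85-fold (interval 5.88 to 8.02) higher in CWR-R1 at 74.0 in CWR-R1 against 10.8 in VCaP. Apoptosis regulators gave 9 higher in VCaP and 9 in CWR-R1 of 34, with a median of -0.07 that turned to 0.13 under TMM scaling. FAS, a death receptor, had 87.7 in VCaP against 10.7 in CWR-R1, while TNFRSF10B, the TRAIL death receptor, had 21.7 in VCaP against 175 in CWR-R1 and PMAIP1 (NOXA), a proapoptotic BCL2 relative, 2.90 in VCaP against 33.2 in CWR-R1. Polycomb and chromatin genes gave 2 higher in VCaP and 10 in CWR-R1 of 55 (median -0.21, 0.00 relative to that of all genes), or 7 and 9 with TMM scaling. EZH2, the Polycomb methyltransferase, had 27.2 in VCaP and 107 in CWR-R1, 3.95-fold (interval 3.57 to 4.38) higher in CWR-R1. Of the outlier and noncoding markers, 8 of 15 were at least 2-fold higher in VCaP and 1, EZH2, in CWR-R1. The paraspeckle RNA NEAT1 had 2861 in VCaP and 272 in CWR-R1.

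Genes of the cell surface and matrix differed widely in both directions. Integrin and matrix genes gave 16 higher in VCaP and 17 in CWR-R1 of 44, with a median of -0.04 that turned to 0.17 under TMM scaling. Basement-membrane genes were on both sides, HSPG2 (perlecan) at 379 in VCaP and 21.3 in CWR-R1, LAMB1, a laminin chain, at 629.9 in VCaP and 67.5 in CWR-R1 and NID1, nidogen, at 2.06 in VCaP and 90.3 in CWR-R1. TIMP1, a metalloprotease inhibitor, had no read in VCaP and 34.3 in CWR-R1 (at least 205-fold). Cadherins and protocadherins gave 5 higher in VCaP and 9 in CWR-R1 of 21 (median -0.71, -0.50 relative to that of all genes), with DSC2, desmocollin, at 125 in VCaP against 4.41 in CWR-R1 and PCDH7 at no read against 56.2 (at least 336-fold). Ion channels gave 15 higher in VCaP and 7 in CWR-R1 of 35, with a median of -0.04 that turned to 0.16 under TMM scaling. Of the ion channel counts, only that in VCaP lay above its share of all genes (14.5% in VCaP, 24.6% in CWR-R1). The counts of integrin and matrix genes and of cadherins and protocadherins lay above both shares. The calcium channel gene TRPV6 had 80.1 in VCaP and 1.45 in CWR-R1 (55.4-fold, interval 36.4 to 88.7), and SCNN1A, a subunit of the epithelial sodium channel, had 3.79 in VCaP and 213 in CWR-R1 (56.2-fold, interval 44.2 to 72.5). TRPM8, the cold-sensing channel known as an androgen target, was listed for VCaP only, at 601. Glycan transferases gave 8 higher in VCaP and 7 in CWR-R1 of 28 (median 0.11), with GALNT3, which starts O-glycans, at 271 in VCaP and 12.0 in CWR-R1. Zinc handling gave 2 higher in VCaP and 4 in CWR-R1 of 14 (median -0.28; 2 and 2 with TMM scaling), with the zinc exporter gene SLC30A4 at 386 in VCaP and 7.10 in CWR-R1 (54.4-fold, interval 45.0 to 66.4) and the importer gene SLC39A8 at 7.58 in VCaP and 87.9 in CWR-R1.

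Some differences came in runs of neighbouring genes. For 12171 of the 12311 genes the order on the chromosomes was taken from RefSeq (GRCh38.p14, for neighbours only), and the median log2 ratio was taken in each of 11849 windows of 15 consecutive genes. The 5th and 95th percentiles of these medians were -1.17 and 0.75. The window furthest toward VCaP ran from KLK3 to ZNF614 (median 3.62). Of its 15 genes, 8 were at least 2-fold higher in VCaP and 2 in CWR-R1, so it was not uniform. Besides the kallikreins it held zinc-finger genes, such as ZNF615 at 278 in VCaP and 13.6 in CWR-R1, ZNF350 at 122 in VCaP and 5.19 in CWR-R1 and ZNF614 at 203 in VCaP and 13.3 in CWR-R1. Second was the imprinted region with NDN, SNRPN and IPW (median 2.74, 9 of 15 at least 2-fold higher in VCaP and 1 in CWR-R1). There SNRPN had 283 in VCaP and 38.4 in CWR-R1 and NDN 31.5 in VCaP and 4.34 in CWR-R1. UBE3A, which is imprinted in neurons only, had 160.5 in VCaP and 122 in CWR-R1. SNRPN overlaps SNURF, so their reads cannot be separated. Toward CWR-R1 the first window was that of the MAGEA genes (median -4.67). The next ran from SPG7 to TUBB3 (median -2.46), where all 15 genes, FANCA and RPL13 among them, were at least 2-fold higher in CWR-R1. The windows from KLHL36 to SLC7A5 (median -2.24, 13 of 15) and from MT1X to DOK4 (median -1.88, 13 of 15) lie on the same chromosome as it, so that chromosome held 3 of the 5 lowest windows. Also among the 5 lowest was the window from TRAPPC1 to SLC25A35 (median -2.27, 13 of 15), which holds AURKB. Some genes named above with their pathways lie in such windows. These include TUBB3 and FANCA (SPG7 to TUBB3) and GINS2, COX4I1 and SLC7A5 (KLHL36 to SLC7A5). Toward VCaP, COX8A lies in the window from SLC3A2 to STIP1, and IFIH1 and GALNT3 in that from BAZ2B to GALNT3. Whether these genes differ by position or by pathway was not tested. Gene copy number was not measured.

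Single genes without a read in VCaP stood within these runs or alone. Of genes listed in both tables with a level of at least 20 in the other line, 44 had no read in VCaP. None was found in CWR-R1 for 5, namely ARHGDIB, ADCY1, KLHDC7A, SOSTDC1 and AGR3. These counts leave out genes listed in 1 table only, which lay the other way. At a level of at least 5 these were 339 in the VCaP table and 96 in the CWR-R1 table. The counts of 44 and 5 therefore do not show which line lacked more genes. PPP2R2A and BNIP3L, a mitophagy receptor, are direct neighbours and both had no read in VCaP, against 121 and 98.4 in CWR-R1. The next gene, PNMA2, had 7 reads in VCaP (levels of 0.390 in VCaP and 59.3 in CWR-R1), and CDCA2 on the other side had levels of 16 in VCaP and 61.0 in CWR-R1. USP10 had no read in VCaP and 156 in CWR-R1 while its neighbour KLHL36 had 37.6 in VCaP and 44.4 in CWR-R1. The neighbour on the other side, ZDHHC7, had 4.51 in VCaP and 65.9 in CWR-R1. These neighbours were chosen for display after their values were seen.

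**Figure D4:**
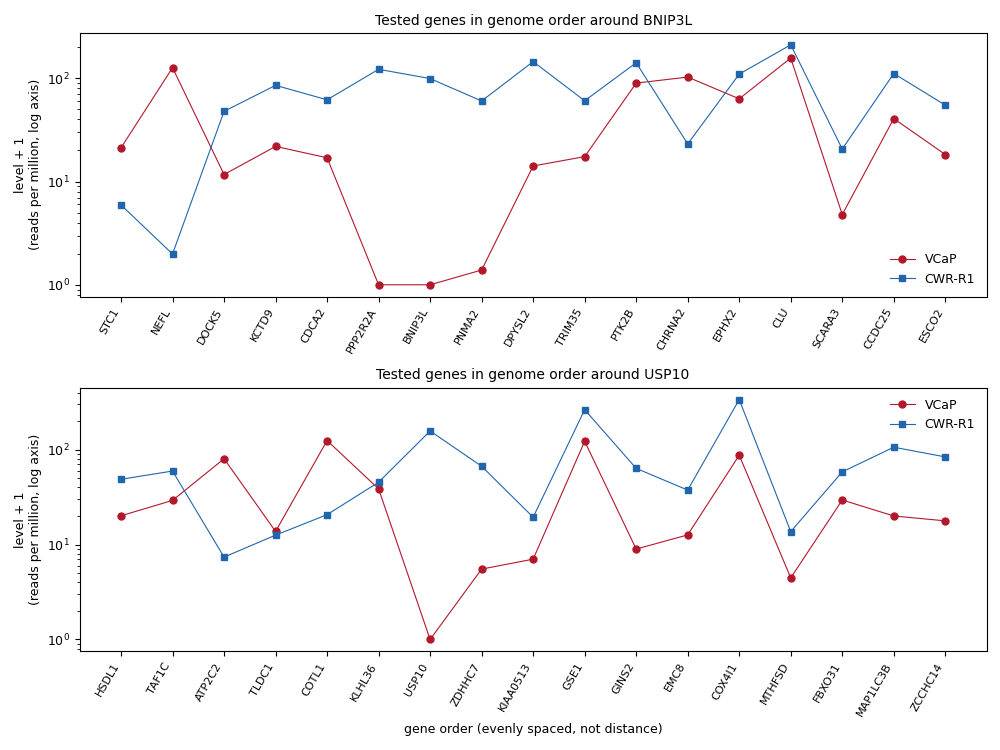
Level + 1 in reads per 1000000 on a log axis for genes in chromosome order (evenly spaced, not by distance) around BNIP3L (top) and USP10 (bottom), VCaP in red and CWR-R1 in blue. VCaP points reach the bottom of the axis, no read, at PPP2R2A and BNIP3L and at USP10, while both lines lie close together at genes such as CLU and KLHL36.

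The C4-2B libraries show which of both lines differed from this further line. Among 1613 genes at least 2-fold higher in VCaP that also had a C4-2B value, VCaP was at least 2-fold above C4-2B while CWR-R1 was within 2-fold of it at 681 (42.2%), and CWR-R1 was at least 2-fold below C4-2B while VCaP was within 2-fold of it at 331 (20.5%). Among 2782 genes at least 2-fold higher in CWR-R1, VCaP stood apart from C4-2B in this way at 1153 (41.4%) and CWR-R1 at 751 (27.0%). The rest showed neither. Of the 1613 genes, 249 had both lines within 2-fold of C4-2B and 352 had other patterns. Of the 2782 genes, these numbers were 478 and 400. The counts depend on separate scalings of 3 tables and carry no test. KLK3 had 1989 ± 30.8 in C4-2B (mean ± SD, n = 2), above both lines, and KLK2 had 105 ± 1.86, between them. HOXB13 had 502 ± 0.892 and TMPRSS2 229.8 ± 2.09 in C4-2B, both nearer to VCaP on a log scale, whereas THBS1 had 50.7 ± 1.59 and IGFBP3 2.84 ± 0.965. The genes of lowest ratio with no read in VCaP were divided. USP10 had 179.5 ± 1.91, PPP2R2A 131 ± 3.55 and MAGEA3 159 ± 6.70 in C4-2B, near or above the CWR-R1 level. MAGEA4, PDE3A and TPPP3 had no C4-2B value. SSX2B had 0.0755 ± 0.107 in C4-2B against 191 in CWR-R1. CTAG1A and CTAG1B each had 0.527 ± 0.106 in C4-2B against 148 in CWR-R1, and CTAG2 had 5.45 ± 1.02 against 118. HSPB1 had 1226 ± 20.1, above both lines, and TNC was at 0 in both C4-2B libraries.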

How the data were processed

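Polyadenylated RNA was sequenced as paired ends after column purification and DNase treatment, per the labels' protocols, with hg19 as genome build, per the submitters' processing notes; aligner and counting program: not given in the sources used here. For each lineage the authors deposited a table of detectable genes with a signal value per library. Each deposited signal value is a gene's read count over a factor of that library: 100% of values were whole multiples of the smallest value, to within 0.02 reads, and reads were recovered by dividing by it. The read counts of the 13910 shared genes made up 98.7% (VCaP) and 99.7% (CWR-R1) of the listed reads and were scaled to 1000000 per library.

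Genes with a level of at least 5 in 1 or both libraries were compared with a pseudocount of 1, and 2-fold differences were counted. With 1 library per line no count test or paired fit was made and no p-value is given. The titles call the C4-2B and C4-2BENZR libraries biological replicates. They do not say whether these came from separate cultures, so the spread of the replicates may be technical. Without molecular identifiers, reads are not independent molecules, and intervals and floors cover counting error only. Genes were named by rule: the 15 highest and 15 lowest ratios, 52 identity genes listed by name (40 listed in both tables), up to 5 members per direction of each of 47 lists, and the 10 highest genes of each table alone. Genes of the Y chromosome and XIST were left out of the lists and of the named genes. Some genes that the rule names, and 2 of the lists, are not reported here. The lists hold 1737 genes, 1369 of them listed in both tables, 3 under another symbol; the members and lists were chosen with earlier results of these data known. The interval and the calls were tried on simulated libraries with known 4-fold changes and counting error only. That setting holds no spread between libraries, so it does not bear on such spread here. Alternatives were other scalings (as deposited, TMM from edgeR 4.0.16, median ratio 0, without the 50 most abundant genes), pseudocounts, filters, a 4-fold threshold, genes of all 3 tables and, chosen after seeing the data, genes of either table. Calculations used Python 3.11.15, numpy 2.4.6, scipy 1.17.1 and pandas 2.3.3.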

Additional observations from a re-analysis of the deposited data

How the results depend on the processing

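At a 4-fold threshold 698 genes were higher in VCaP and 1100 in CWR-R1. The median log2 ratio of all genes, -0.21, moved to 0.00429 with TMM scaling and to 0 by construction with the median ratio set to 0. Under the other settings the counts stayed within 1.5 times, from 1393 to 2254 for VCaP and from 2104 to 3442 for CWR-R1. Adding genes listed in either table alone, chosen after seeing the data, gave 2121 and 3127. The median of the HOX list turned from -1.57 to 0.25 at a level of at least 20, and that of immune cell markers, with 1 member past the filter, from 3.33 to -1.27 without a filter; the cause was not tested. Of 47 list medians, 4 changed sign under TMM scaling over the same members, each named beside its value. With the filter applied again after scaling, 5 did, androgen synthesis moving from -0.21 to 0.15. Sign changes of list medians numbered 4 at a level of at least 20 and 2 without a filter. They numbered 2 with genes of all 3 tables and 1 without the 50 most abundant genes. Of 371 named genes, none reversed while past 2-fold in these settings; 3 within 2-fold changed sign with TMM scaling, 7 no longer reached 2-fold with it and 14 with a pseudocount of 5. No paired analysis was possible because VCaP and CWR-R1 have 1 library each and carry no replicate number; for the same reason no library could be left out. Low levels limit the comparison: a gene without a read can have a level of up to 3 reads, and genes that no library of a table held could not be compared.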

Other observations

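Genes listed for 1 line only add to the contrast, each without a fold. In the VCaP table alone, ITM2A, a membrane protein of cartilage and T cells, had a level of 755, the neuropeptide gene NPY 604 and the plakophilin gene PKP1 390. REG4, a gut lectin, had 313, B3GAT1, which makes the HNK-1 glycan, 185, AOX1, aldehyde oxidase, 174, and the neuronal filament gene INA 172. In the CWR-R1 table alone, PDGFRA (504) was followed by the calcium-binding protein gene CALB2 at 59.9 and the GABA receptor genes GABRE at 39.1 and GABRQ at 27.1. SLFN11, known for its effect on the response to DNA-damaging drugs, had 22.2, and SLC6A3, the dopamine transporter, had 22.0.

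Grouped by symbol stem, which was done after the values were seen and carries no test, further families lay to one side. Those named here are a few of many stems. Of 8 annexins (ANXA), calcium-dependent membrane binders, 4 were at least 2-fold higher in VCaP and 2 in CWR-R1 (median log2 ratio 1.01). Of 10 clustered protocadherins (PCDHB), 5 were higher in VCaP and 2 in CWR-R1 (median 1.24). Of 10 TNF receptor superfamily genes (TNFRSF), 6 were at least 2-fold higher in CWR-R1 and 2 in VCaP (median -2.98), and of 9 DOCK exchange factors for small GTPases 5 and 0 (median -2.03). Of 14 intraflagellar transport genes (IFT), which build cilia, 7 were at least 2-fold higher in CWR-R1 and 0 in VCaP (median -1.0). Of the 421 zinc-finger genes named ZNF, 68 were higher in VCaP and 58 in CWR-R1 (median -0.01), the latter below the share of all genes. The ZNF run beside the kallikreins lay toward VCaP. These medians stand against -0.21 for all genes, and the counts against 14.5% higher in VCaP and 24.6% in CWR-R1.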
